A study of Mus musculus with 8 samples.

Results

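Metallothioneins are small cysteine-rich proteins that bind zinc and copper, and the mouse genome holds a cluster of them. The genes described here were Mt1, Mt2 and Mt3, taken by their symbols as 3 of the 32285 features counted in single-nucleus RNA sequencing of the ventricular-subventricular zone (V-SVZ), the neural stem cell (NSC) niche that lines the lateral ventricle. The genes of the mitochondrial genome, whose symbols begin with mt-, are a different group and were not members. All 3 members had UMIs (unique molecular identifiers, each standing for 1 captured RNA molecule) in every library.

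Mt1 and Mt2 are expressed in many tissues, are induced by zinc through the transcription factor MTF-1 and by glucocorticoids, and in brain are known mainly from astrocytes and ependymal cells. Mt3, also called growth inhibitory factor, is the brain-enriched member and is much less responsive to metals. Mt4, the remaining gene of the cluster, is known from stratified epithelium.

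The 8 libraries came from 8 mice at postnatal day 90, with 4 mice labelled Tsc2 wt/wt as controls and 4 labelled Tsc2 mut/mut. Tsc2 encodes tuberin, which restrains the growth kinase complex mTORC1. All mice, controls included, carried a tdTomato reporter that Cre recombinase switches on, and the mutants carried a conditional Tsc2 allele on both chromosomes, so that deletion was limited to cells reached by Cre. Cre was delivered in the study by plasmid electroporation of neonates or by a tamoxifen-dependent Nestin-CRE-ERT2 line, and which of these served the nuclei was not stated in the sources used here. About 100000 tdTomato-positive nuclei per sample were sorted and processed with a 10x Genomics 3′ kit (v3.1).

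Each library held 60000 barcodes, the number the authors forced, and 11182335 to 36773832 UMIs. Barcodes with at least 300 genes numbered 1923 to 10153 per library and 37881 in all, and only these are called kept. Kept barcodes were split by the share of their UMIs from the 13 protein-coding genes of the mitochondrial genome. Of them, 3470 were nucleus-like with under 20%, 1005 were intermediate and 33406 were mitochondria-rich with 30% or more. The 20000 barcodes with the fewest UMIs in each library stood for free RNA. Levels are given as counts per 1000000 non-mitochondrial UMIs (CPM). Malat1, an RNA retained in nuclei, averaged 26543 ± 11520.3 CPM (SD, n = 8) in nucleus-like and 763 ± 364 CPM in mitochondria-rich barcodes. Tsc2 mut/mut replicate 4 stood apart: 78.4% of its 199 nucleus-like barcodes met a choroid plexus gate and its nucleus-like Malat1 was 1834 CPM, against 23946 to 38221 CPM in the other 7 libraries. Pairs of libraries shared 1 to 15 kept barcodes. Tsc2 itself gave 15.2 to 22.3 CPM with overlapping genotypes in kept barcodes, and since 3′ counts need not come from the deleted part of the gene, they do not check the labels.

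All 3 members lay on chromosome 8, forward strand, in the order Mt4, Mt3, Mt2, Mt1 (GRCm38, GENCODE M21). Mt3 (ENSMUSG00000031760) spanned 94152607 to 94154146, Mt2 (ENSMUSG00000031762) 94172664 to 94173568 and Mt1 (ENSMUSG00000031765) 94179082 to 94180327, each with 3 exons. Only 5514 bases separated Mt2 from Mt1, while 18518 separated Mt3 from Mt2. Mt4 had 1 UMI in all kept barcodes and was not tested. The 3 promoters are shown because Mt1 and Mt2, but not Mt3, passed the genotype test in the choroid plexus gate below. That comparison was added after seeing the data. Neither the difference between the members nor any link of promoter sequence to it was tested. Each runs from 250 bases before to 50 bases from the start in RefSeq (GRCm38.p6, forward strand), and capitals mark matches to the metal response element core, TGCACNC or TGCGCNC, on either strand, the reverse forms being GNGTGCA and GNGCGCA.
Mt1: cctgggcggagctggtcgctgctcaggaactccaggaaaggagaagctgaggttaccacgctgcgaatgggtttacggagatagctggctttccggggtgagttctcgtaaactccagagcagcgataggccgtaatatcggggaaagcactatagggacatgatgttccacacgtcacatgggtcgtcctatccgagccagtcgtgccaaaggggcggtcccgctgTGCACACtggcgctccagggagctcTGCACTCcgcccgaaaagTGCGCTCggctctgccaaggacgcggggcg
Mt2: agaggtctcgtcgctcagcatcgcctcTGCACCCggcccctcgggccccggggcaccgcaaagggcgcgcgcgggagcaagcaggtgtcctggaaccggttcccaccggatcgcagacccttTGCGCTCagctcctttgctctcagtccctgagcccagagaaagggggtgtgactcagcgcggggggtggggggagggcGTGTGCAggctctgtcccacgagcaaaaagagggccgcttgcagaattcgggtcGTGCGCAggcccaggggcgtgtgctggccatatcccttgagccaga
Mt3: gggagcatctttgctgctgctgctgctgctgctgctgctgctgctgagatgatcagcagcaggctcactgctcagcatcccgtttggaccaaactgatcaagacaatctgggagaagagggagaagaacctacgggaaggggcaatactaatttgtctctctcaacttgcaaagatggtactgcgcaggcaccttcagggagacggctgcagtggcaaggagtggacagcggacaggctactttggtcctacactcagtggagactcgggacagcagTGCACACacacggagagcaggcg

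The Mt1 window is chr8:94178839-94179138, the Mt2 window chr8:94172368-94172667 and the Mt3 window chr8:94152357-94152656. Within these windows Mt2 held 4 matches, Mt1 held 3 and Mt3 held 1. Bases outside the windows were not searched. Of 32851 RefSeq promoters of this length, 25.7% held at least 1 match, 1.97% at least 3 and 0.517% at least 4. The RefSeq start of Mt2 lies 46 bases before that of GENCODE, and matches in such a window are letters only, not bound sites.

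Across barcode populations, all 3 genes were much lower in nucleus-like than in mitochondria-rich barcodes of the same mouse. Mt1 was 9.40-fold, Mt2 7.49-fold and Mt3 4.89-fold lower, in 8 of 8 mice each, from mean differences of log2 CPM within a mouse. How well the RNA of each gene is captured was not measured, so levels are compared between populations and not between the members.

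Mt1 CPM in nucleus-like barcodes of Tsc2 wt/wt replicates 1 to 4 were 472, 586, 651.1 and 347, and those of Tsc2 mut/mut were 678, 651.3, 821 and 936. In mitochondria-rich barcodes the Mt1 CPM were 5522, 5463, 5401 and 5652 in Tsc2 wt/wt and 5894, 5507, 6359 and 6785 in Tsc2 mut/mut. No nucleus-like value reached any mitochondria-rich one. Mt2 CPM in nucleus-like barcodes were 100.1, 88.0, 137 and 85.6 in Tsc2 wt/wt and 115, 107, 109 and 65.3 in Tsc2 mut/mut, and in mitochondria-rich barcodes 736, 717, 664 and 753, then 718, 707, 802 and 831. Mt2 was again separated without overlap.

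Mt3 CPM in nucleus-like barcodes were 2073, 919, 716 and 1156 in Tsc2 wt/wt and 1143, 1564, 1878 and 4544 in Tsc2 mut/mut. In mitochondria-rich barcodes the Mt3 CPM were 6806, 7179, 6722 and 6556, then 8140.4, 6364.5, 8194 and 8577. Mt3 did not overlap between populations, and its highest nucleus-like value belonged to the library rich in choroid plexus-gated barcodes. Free RNA ranged from 4231 to 7671 CPM for Mt1, from 403 to 844 CPM for Mt2 and from 5249.9 to 9511 CPM for Mt3, overlapping the mitochondria-rich ranges of each.

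**Figure D1:**
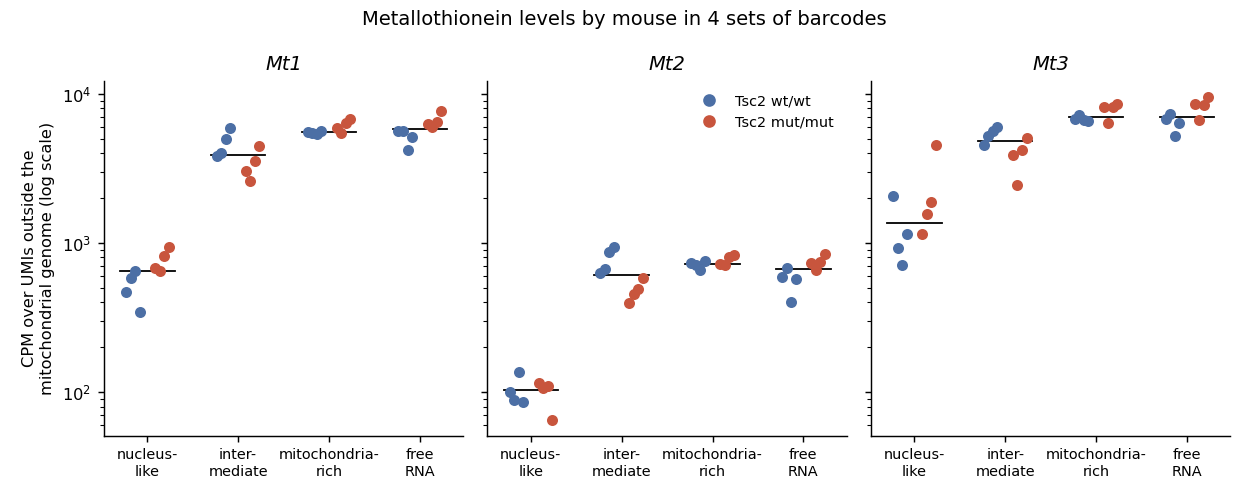
CPM on a log axis of Mt1, Mt2 and Mt3 in nucleus-like, intermediate, mitochondria-rich and free RNA barcodes, 1 point per mouse coloured by genotype and a black line at the median. The 8 nucleus-like Mt1 values, 347 to 936 CPM, all sit below the 8 mitochondria-rich values, 5401 to 6785 CPM.

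In the edgeR quasi-likelihood fit with the mouse as a block, the log2 difference, nucleus-like minus mitochondria-rich, was -3.81 for Mt1 (SE 0.30, adjusted p = 2.19e-07), -3.49 for Mt2 (SE 0.23, adjusted p = 9.95e-08) and -2.89 for Mt3 (SE 0.37, adjusted p = 1.21e-05). Of 10942 genes tested, 39.4% were called lower, so a lower call by itself was common. The exact sign-flip test over the 8 mice gave 0.0078125 for each member, the smallest p it allows, for mean log2 differences of -3.23, -2.90 and -2.29. Without choroid plexus-gated barcodes, an alternative chosen after seeing the data, the fitted Mt3 value was -4.16 on the log2 scale, while Mt1 was -4.04 and Mt2 -3.52.

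The levels also changed along the mitochondrial share within kept barcodes. Mt1 averaged 392 ± 202 CPM (SD over 8 mice) under 5% mitochondrial UMIs, 579 ± 238 from 5 to 10%, 1284 ± 512 from 10 to 20% and 4044 ± 1070.4 from 20 to 30%. It peaked at 6848 ± 479 from 30 to 40% and was 5477 ± 567 above 50%. Mt2 followed the same order, 59.7 ± 6.55 CPM in the lowest bin, 966 ± 96.4 from 30 to 40% and 678 ± 49.4 above 50%. Mt3 was 1699.8 ± 1599 in the lowest bin and 7750.2 ± 789 from 30 to 40%. Malat1 ran the other way, from 29774 ± 13412 to 612 ± 305 CPM. Peaks of all 3 members therefore lay just above the limit that set mitochondria-rich barcodes apart.

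**Figure D2:**
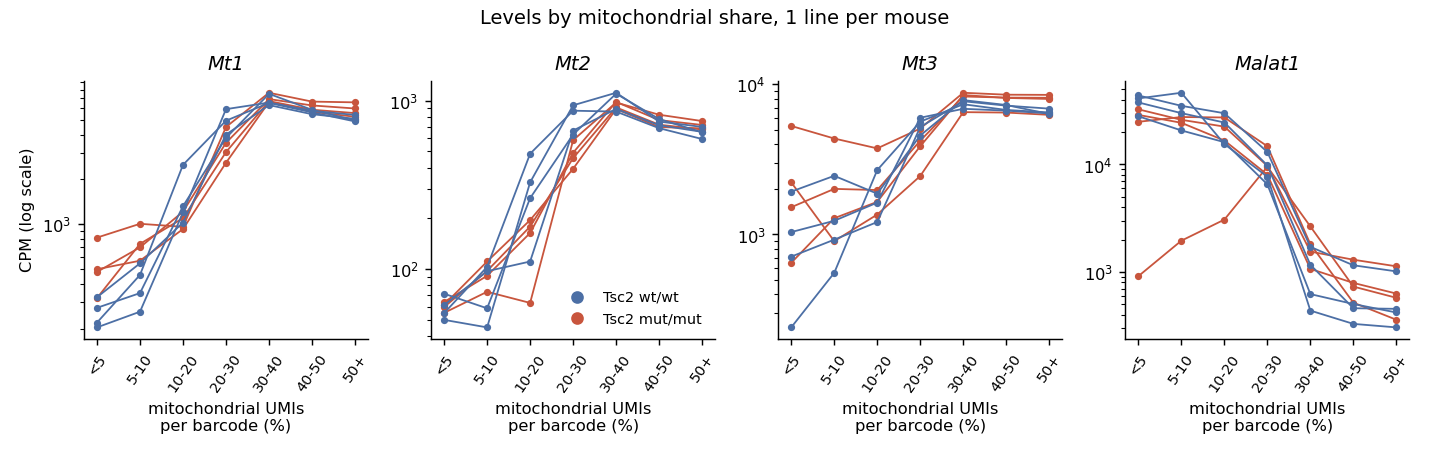
CPM on a log axis of Mt1, Mt2, Mt3 and Malat1 in bins of the mitochondrial share of UMIs (percent), 1 line per mouse coloured by genotype. Mean Mt1 climbs from 392 CPM in the lowest bin to 6848 CPM at 30 to 40%, while mean Malat1 falls from 29774 to 612 CPM across the bins.

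Marker gates then asked which cell types held the metallothioneins. A barcode entered a gate with at least 3 UMIs from at least 2 markers of 1 of 11 lists and at least 2 times the UMIs of any other list, and no member was a marker. In nucleus-like barcodes, 5 gates had at least 10 barcodes in at least 6 mice: astrocyte/NSC with 1234, oligodendrocyte with 564, choroid plexus with 419, microglia with 375 and ependymal with 268. All markers of each of these lists were at least 1.5-fold higher inside the gate than in the other nucleus-like barcodes, which the gating itself favours. The choroid plexus gate held Malat1 at 60.0 CPM, so these barcodes lacked the RNA that marks nuclei, and Ttr, the transthyretin gene typical of choroid plexus epithelium, at 270106 CPM against 4169 CPM elsewhere.

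By mean level over mice, Mt3 was highest in the choroid plexus gate among these 5 gates. Mt2 was highest in the ependymal gate and lowest in the choroid plexus gate, and Mt1 overlapped across all 5 gates. The gates also differed in Malat1, at 60.0 CPM in choroid plexus against 40459 CPM in astrocyte/NSC barcodes. Astrocyte/NSC-gated mitochondria-rich barcodes held Mt3 at 7842 CPM, above the 4529 CPM of the choroid plexus gate. How far the order of the gates follows cell type was not tested. Choroid plexus epithelium secretes cerebrospinal fluid, and ependymal cells are the ciliated lining of the ventricle.

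Mt3 CPM in the choroid plexus gate were 4328, 4644 and 3966 in Tsc2 wt/wt replicates 1, 2 and 4, and 4004, 4823, 5142 and 4796 in Tsc2 mut/mut. Tsc2 wt/wt replicate 3 had a single barcode in the gate and is left out of these values. In the astrocyte/NSC gate Mt3 CPM were 543, 585, 828 and 511 in Tsc2 wt/wt and 645, 617 and 837 in Tsc2 mut/mut replicates 1 to 3. Every choroid plexus value lay above every astrocyte/NSC value. How many of all genes separate the gates in this way was not counted. The other gates averaged 842 ± 460 CPM (ependymal, n = 6), 714 ± 433 (microglia, n = 7) and 591 ± 364 (oligodendrocyte, n = 7).

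On the log2(CPM + 10) scale Mt3 was 2.84 higher in choroid plexus than in astrocyte/NSC barcodes, a 7.16-fold difference in 6 of 6 mice (exact sign-flip p = 0.03125, the smallest for 6 mice, adjusted p = 0.188 over 6 comparisons). Against ependymal barcodes the difference was 2.34, in 5 of 5 mice (exact p = 0.0625, also the smallest, adjusted p = 0.188). Both raw p were at the smallest these numbers of mice allow, and neither passed after adjustment. The neighbours ependymal, astrocyte/NSC, microglia and oligodendrocyte did not differ beyond their spread for Mt3 (adjusted p from 0.188 to 0.828, exact).

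Mt2 CPM in the ependymal gate were 176, 73.1 and 219.7 in Tsc2 wt/wt replicates 1 to 3 and 289, 258 and 344 in Tsc2 mut/mut replicates 1 to 3. In the astrocyte/NSC gate they were 181, 116, 171 and 117 in Tsc2 wt/wt and 107, 138 and 111 in Tsc2 mut/mut. The gates overlapped only through Tsc2 wt/wt replicates 1 and 2. By genotype, Mt2 averaged 156 CPM in ependymal against 146 CPM in astrocyte/NSC barcodes of Tsc2 wt/wt, and 297 against 119 CPM in Tsc2 mut/mut, the wt/wt means differing by less than their SD. Mt2 averaged 227 ± 94.8 CPM in ependymal (n = 6), 135 ± 30.1 in astrocyte/NSC (n = 7), 69.0 ± 52.8 in microglia (n = 7), 60.7 ± 42.6 in oligodendrocyte (n = 7) and 36.5 ± 26.5 in choroid plexus barcodes (n = 7). The oligodendrocyte and microglia gates of Tsc2 wt/wt replicate 3 had 0 Mt2 UMIs, where 3 UMIs would have been 47.8 and 131 CPM.

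Mt2 was 1.96 lower on the log2(CPM + 10) scale in choroid plexus than in astrocyte/NSC barcodes, in 6 of 6 mice (exact p = 0.03125, adjusted p = 0.0938). In oligodendrocyte barcodes it was lower by 1.34 in 6 of 7 mice and in microglia by 1.28 in 5 of 7 mice (exact, adjusted p = 0.0938 for both). The ependymal excess of 0.58 appeared in 4 of 6 mice (exact, adjusted p = 0.225). None of the 18 gate comparisons of the members reached an adjusted p of 0.05.

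Mt1 averaged 858 ± 457 CPM in ependymal, 618 ± 323 in microglia, 617 ± 134 in astrocyte/NSC, 609.7 ± 261 in choroid plexus and 491 ± 288 in oligodendrocyte barcodes. Differences from the astrocyte/NSC gate ran from -0.52 to 0.20 on the log2(CPM + 10) scale, with exact adjusted p of 0.406 or more. All neighbours in the order of Mt1 overlapped.

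**Figure D3:**
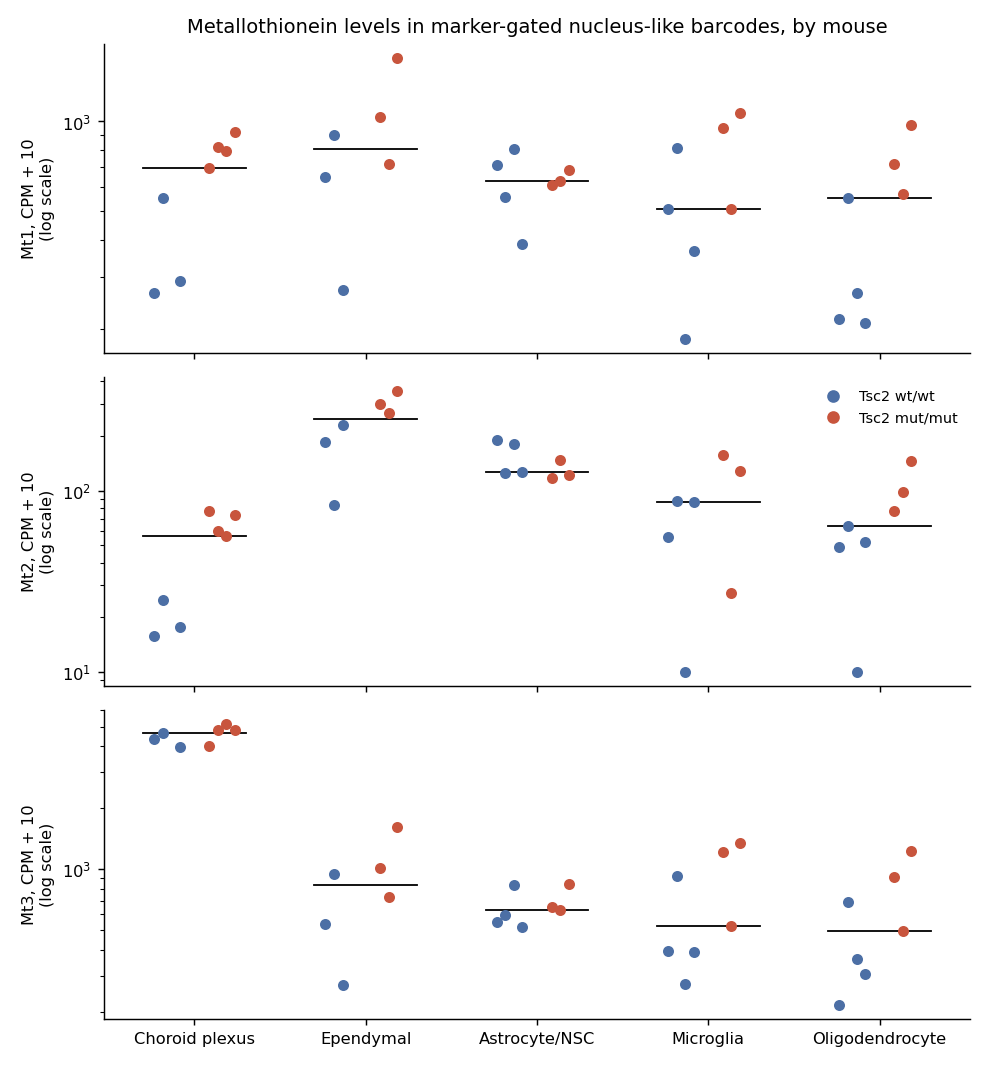
CPM + 10 on a log axis of Mt1, Mt2 and Mt3 in the 5 marker gates of nucleus-like barcodes, 1 point per mouse coloured by genotype and a line at the median. Mt3 in the choroid plexus gate, 3966 to 5142 CPM, sits above every value of the other 4 gates, and Mt1 overlaps throughout.

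The proportions of the members within a gate set it against the free RNA of the same libraries. Mt3 per Mt1 UMI was 5.25 to 17.0 in the choroid plexus gate and 0.775 to 1.36 in the astrocyte/NSC gate. It was 1.12 to 1.36 in free RNA and 1.16 to 1.38 in mitochondria-rich barcodes. The choroid plexus range differed by genotype, with 17.0, 8.57 and 14.2 in Tsc2 wt/wt replicates 1, 2 and 4. Tsc2 mut/mut replicates 1 to 4 had 5.85, 5.97, 6.54 and 5.25, nearer to free RNA. Mt2 per Mt1 UMI was 0.164 to 0.312 in the astrocyte/NSC gate and 0.0822 to 0.842 in the ependymal gate, against 0.0951 to 0.120 in free RNA and 0.0229 to 0.0988 in the choroid plexus gate. In the choroid plexus gate Mt2 per Mt1 UMI was 0.0229 to 0.0278 in Tsc2 wt/wt, from 2 to 3 Mt2 UMIs per mouse, and 0.0587 to 0.0988 in Tsc2 mut/mut. The part of free RNA in these ratios was not tested. Astrocyte/NSC ratios of Mt2 to Mt1 did not overlap those of free RNA, whereas microglia ratios, 0 to 0.216, spanned them. In the endothelial gate, with 56 barcodes in 4 mice, Mt3 per Mt1 UMI was lowest at 0.333 to 0.697.

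The shares of barcodes with a UMI were compared after thinning each barcode to 500 UMIs. Mt3 was seen in 84.9% of choroid plexus-gated barcodes (exact binomial 95% interval 81.1 to 88.2), against 29.7% in astrocyte/NSC, 32.3% in ependymal, 33.5% in oligodendrocyte and 34.8% in microglia barcodes. Microglia were taken as the type that should hold little of these genes and had a median of 1580 UMIs, against 3315.5 in the astrocyte/NSC gate and 5751 in the choroid plexus gate. The astrocyte/NSC share of Mt3 was not above the microglial one. Mt1 was likewise seen in 30.3% of astrocyte/NSC and 34.0% of microglia barcodes, with 36.5% in ependymal barcodes. Since microglia barcodes held fewer UMIs before thinning, these shares cannot decide what is background. Mice also differed in direction for Mt1. It was seen in 30 of 95 astrocyte/NSC and 0 of 15 microglia barcodes in Tsc2 wt/wt replicate 3, but in 73 of 241 and 37 of 79 in replicate 2.

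Mt2 was the exception among the glial gates, in 7.44% (6.03 to 9.07) of astrocyte/NSC and 11.7% (8.06 to 16.1) of ependymal barcodes, against 4.38% (2.53 to 7.02) in microglia, 3.58% in oligodendrocyte and 2.88% in choroid plexus barcodes. The astrocyte/NSC and microglia intervals overlapped, and the ependymal one did not overlap that of microglia. Without thinning, the Mt2 shares were 32.3%, 34.7%, 11.7%, 13.7% and 20.8% in that order, the unthinned Mt3 share was 99.3% in choroid plexus against 67.7% in microglia barcodes, and the unthinned Mt1 shares were 75.6% and 58.9% in astrocyte/NSC and microglia barcodes. Thinning left out 25 astrocyte/NSC, 10 microglia, 6 oligodendrocyte, 2 ependymal and 2 choroid plexus barcodes. Intervals pool barcodes over mice and cover counting error only. In Tsc2 mut/mut replicate 1 alone, the thinned Mt2 share was lower in astrocyte/NSC (17 of 251) than in microglia barcodes (7 of 83).

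Mitochondria-rich barcodes that met a gate carried the members at higher levels than nucleus-like ones. Mt1 averaged 6522 ± 417 CPM in the astrocyte/NSC gate (13475 barcodes, n = 8), 5277 ± 443 in oligodendrocyte, 4720.4 ± 801 in excitatory neuron and 5446 ± 594 in ungated barcodes. Mt2 averaged 874 ± 56.0, 613 ± 103, 547 ± 110.0 and 665 ± 64.5 CPM in the same order, and Mt3 7842 ± 714, 6569 ± 1046, 6417 ± 1078 and 7063 ± 944. The astrocyte/NSC gate had the highest mean of each member among these 4. Against excitatory neuron barcodes it did not overlap for Mt1 (lowest 5994, highest 5809.5 CPM) or Mt2 (796 and 704 CPM), with no test run. The share of all genes without overlap between these gates was not counted. Marker levels of the gates were checked in nucleus-like barcodes only. There the excitatory neuron gate held 3 barcodes, with 3 of its 8 markers at least 1.5-fold higher inside it. Its name as a cell type is therefore not settled. Excitatory neuron-gated mitochondria-rich barcodes held more Mt1 and Mt2 than the astrocyte/NSC-gated nucleus-like barcodes, at 617 and 135 CPM.

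Among mice, Mt1 was correlated with Mt2 and with Mt3 in mitochondria-rich barcodes, and Mt2 with Mt3 did not pass the adjusted threshold. Both calls were lost without Tsc2 mut/mut replicate 3 or 4, which had the highest Mt1. The second was also lost without replicate 1, although r then rose from 0.867 to 0.913. Over 8 mice the log2 CPM of Mt1 and Mt2 had Pearson r = 0.891 (exact permutation p = 0.00293, adjusted p = 0.0134 over 6 correlations) and Spearman rho = 0.905 (exact permutation, adjusted p = 0.0274). Mt1 and Mt3 had r = 0.867 (exact permutation p = 0.00446, adjusted p = 0.0134) and rho = 0.690 (exact permutation, adjusted p = 0.192), and Mt2 and Mt3 r = 0.671 (exact permutation p = 0.0739, adjusted p = 0.111) and rho = 0.643 (exact permutation, adjusted p = 0.192). Without those 2 mice, r fell to 0.465 for Mt1 and Mt2 (exact permutation p = 0.343), 0.698 for Mt1 and Mt3 (exact permutation p = 0.139) and 0.0332 for Mt2 and Mt3 (exact permutation p = 0.949). Leaving out either Tsc2 mut/mut replicate 3 or 4 alone ended the call for Mt1 with Mt2 (r = 0.863 and 0.797) and for Mt1 with Mt3 (r = 0.837 and 0.808), and leaving out replicate 1 ended the latter too (r = 0.913, exact permutation, adjusted p = 0.0599).

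In nucleus-like barcodes no pair reached the adjusted threshold in the main setting. Mt1 with Mt3 reached it only without choroid plexus-gated barcodes, an alternative chosen after seeing the data (r = 0.877, exact permutation, adjusted p = 0.00863). Mt1 and Mt2 had r = -0.0471 and rho = 0.143 (exact permutation p = 0.909 and 0.752), Mt1 and Mt3 r = 0.441 and rho = 0.357 (exact permutation p = 0.270 and 0.389), and Mt2 and Mt3 r = -0.684 and rho = -0.524 (exact permutation p = 0.0636 and 0.197). Without the 2 mice farthest out, which always included Tsc2 mut/mut replicate 4, these r became 0.384, -0.0909 and 0.471. For Mt2 with Mt3 the sign turned only when Tsc2 wt/wt replicate 3 was left out with it. Leaving out 1 mouse gave r from -0.820 to -0.238, the last without Tsc2 mut/mut replicate 4.

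The genes whose levels ran most like each member were taken from all genes of at least 50 CPM, as a description. Over the 8 mice in mitochondria-rich barcodes (2643 genes), Mt1 was nearest to Bptf (r = 0.933), Nop10, Dync1li2, Nsa2 and Sash1. Mt2 was nearest to Samd4 (r = 0.944), Zc3h15, Eapp, Ptpn11 and Dync1li2, and Mt3 to Nsa2 (r = 0.970), Zfp664, Uqcr10, Sec62 and Srp19. Over the means of the 5 gates (4290 genes), Mt3 was nearest to Chchd10 (r = 0.999), Churc1, Mpc1, Ppdpf and Snrpg. Mt2 was nearest to N4bp2 (r = 0.998), Slc35d1, Nrxn3, Alms1 and Mlc1, and Mt1 to Pbxip1 (r = 0.985), Nme7, Ablim1, Tom1l1 and Dnajb4. With 5 points, many genes reach such values, and the points share libraries and depth.

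Between genotypes, no member passed the threshold in the whole of the kept, nucleus-like, mitochondria-rich or astrocyte/NSC-gated barcodes. The fitted differences below are log2, mut/mut minus wt/wt, from edgeR with Benjamini-Hochberg adjustment. In kept barcodes they were 0.36 for Mt1 (SE 0.27), 0.25 for Mt2 (SE 0.24) and 0.43 for Mt3 (SE 0.28), each with adjusted p = 0.999, where 2 of 12916 genes (0.0155%) were called. In mitochondria-rich barcodes, where 32 of 10097 genes (0.317%) were called, they were 0.15 for Mt1 (SE 0.09, adjusted p = 0.485), 0.09 for Mt2 (SE 0.09, adjusted p = 0.745) and 0.19 for Mt3 (SE 0.09, adjusted p = 0.382). Mt1 in free RNA was 5638, 5639.9, 4231 and 5155 CPM in Tsc2 wt/wt and 6251, 6007, 6445 and 7671 CPM in Tsc2 mut/mut, and these did not overlap. Its exact permutation p was 0.0286, the smallest possible, and its adjusted p was 0.0857 over the 3 members, where 4.78% of genes were higher without overlap.

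In nucleus-like barcodes edgeR called 0 of 11048 genes (0%), with 168 at an unadjusted p under 0.05 and 1 called by DESeq2. Mt1 differed by 0.92 (SE 0.49) and Mt3 by 1.36 (SE 0.79), both with adjusted p = 0.923, and Mt2 by 0.12 (SE 0.26, adjusted p = 0.943). In simulated counts this fit recovered only 11.5% of genes changed by 1.5 on the log2 scale, so it could miss differences of this size. The Mt1 CPM given above did not overlap between genotypes, but only by 651.1 against 651.3, and 0.493% of genes were higher without overlap. Without Tsc2 mut/mut replicate 4 the Mt1 and Mt3 differences were 0.40 and 0.20 on the log2 scale, so these values moved with the library rich in choroid plexus-gated barcodes. Without choroid plexus-gated barcodes in any library, an alternative chosen after seeing the data, the differences were 0.57 for Mt1 (SE 0.30) and 1.23 for Mt3 (SE 0.52), both with edgeR adjusted p = 0.907, and -0.13 for Mt2 (SE 0.21). Of the 199 nucleus-like barcodes of Tsc2 mut/mut replicate 4, 156 left with that gate. Its 24 ungated ones held 222 Mt3 UMIs, or 3.22 per Mt1 UMI, the highest of 7 mice with a median of 1.45. The part of these ungated barcodes and of the other gates was not tested.

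In astrocyte/NSC-gated barcodes, where 8 of 6257 genes (0.128%) were called, Mt1 CPM were 701, 546, 799 and 377 in Tsc2 wt/wt and 599.6, 621 and 679 in Tsc2 mut/mut replicates 1 to 3, with 7 barcodes only in replicate 4, which read 1698 CPM. The genotypes overlapped, and the fitted difference was 0.14 (SE 0.22, adjusted p = 0.982). Mt2 differed by -0.38 (SE 0.21, adjusted p = 0.718) and Mt3 by 0.24 (SE 0.21, adjusted p = 0.923) in the same edgeR fit.

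Whether a genotype difference depended on the compartment was tested directly. The difference between genotypes of the log2 ratio of nucleus-like to mitochondria-rich levels was 0.46 for Mt1 (exact permutation p = 0.0857, adjusted p = 0.257), -0.15 for Mt2 (exact permutation p = 0.686) and 0.63 for Mt3 (exact permutation p = 0.286). The smallest p for 4 against 4 mice is 0.0286, and none passed.

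**Figure D4:**
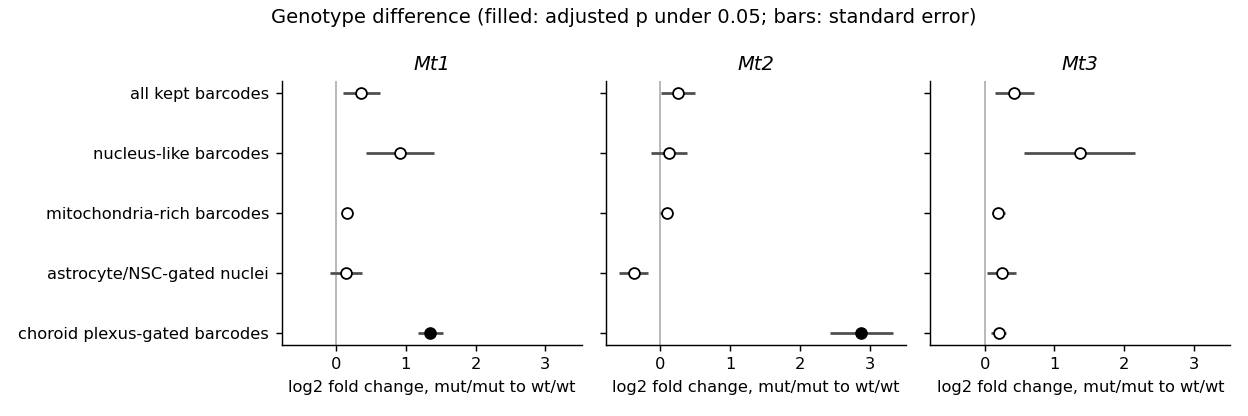
Log2 fold changes of Mt1, Mt2 and Mt3, Tsc2 mut/mut over wt/wt, with standard errors in 5 populations, filled symbols marking adjusted p under 0.05. Only Mt1 at 1.35 and Mt2 at 2.88 in the choroid plexus gate are filled.

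In choroid plexus-gated barcodes Mt1 and Mt2 were higher in Tsc2 mut/mut, while Mt3 did not pass the test. This comparison was added after seeing the data and leaves out Tsc2 wt/wt replicate 3 with its 1 barcode. Mt1 CPM were 254, 542 and 280.2 in Tsc2 wt/wt replicates 1, 2 and 4 and 685, 808, 786 and 913 in Tsc2 mut/mut. Mt2 CPM were 5.82, 15.1 and 7.78 against 67.7, 49.6, 46.1 and 63.7, and neither gene overlapped between genotypes. Of the 2990 genes tested, 100 (3.34%) were higher in Tsc2 mut/mut without overlap and 208 were lower without overlap. Mt3 overlapped, with the values given for the gate above.

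The edgeR fit gave 1.35 for Mt1 (SE 0.18, adjusted p = 0.00141), 2.88 for Mt2 (SE 0.45, adjusted p = 0.00148) and 0.20 for Mt3 (SE 0.11, adjusted p = 0.345), where 8 of 2990 genes (0.268%) were called higher and 21 lower. Mt1 and Mt2 were therefore 2 of 8 genes called higher. Pooled over mice, the ratio of mut/mut to wt/wt was 2.73 for Mt1 (95% counting interval 2.40 to 3.12, 275 against 1461 UMIs), 7.42 for Mt2 (3.47 to 18.9, 7 against 101 UMIs) and 1.12 for Mt3 (1.08 to 1.16). These intervals cover counting error only, leave out the spread between mice and so do not test genotype. Of the 904851 pooled wt/wt UMIs, 515035 came from replicate 1. The wt/wt Mt2 value rests on 3, 2 and 2 UMIs per mouse. The exact permutation p of 3 against 4 mice was 0.0286 for Mt1 and for Mt2, the smallest possible, with adjusted p = 0.171 over the 12 gate comparisons.

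The Mt1 call held without any 1 of the 7 mice (edgeR adjusted p from 8.44e-10 to 0.0277), but with Tsc2 wt/wt replicate 3 kept in the difference was 1.13 with edgeR adjusted p = 0.232, its single barcode reading 1276 CPM. Mt2 then differed by 2.76 (edgeR adjusted p = 0.000513), that barcode holding 1 Mt2 UMI, or 45.6 CPM, just under the Tsc2 mut/mut values. The Mt2 call was lost without Tsc2 wt/wt replicate 1 (2.51, edgeR adjusted p = 0.133) and held in the other 6. Other measures also differed between genotypes or libraries here. Median UMIs were 8605 to 12177 in Tsc2 wt/wt and 5008 to 10262 in Tsc2 mut/mut. The 12 summed choroid plexus markers, none at 0, were 5698 to 7613 against 4775 to 5671 CPM. The 14 summed ependymal markers were 179 to 196 against 220.4 to 295 CPM, neither sum overlapping. The sums of all other marker lists overlapped, such as astrocyte/NSC at 881 to 1047 against 659 to 1301 CPM. Of the ependymal markers, 2 to 6 were at 0 in each Tsc2 wt/wt library compared and 3 to 4 in each Tsc2 mut/mut library. Mitochondrial shares were 5.98 to 6.66% against 5.82 to 8.95%. Free RNA barcodes held at most 126, 394 and 146 UMIs in Tsc2 wt/wt replicates 1, 2 and 4. In Tsc2 mut/mut replicates 1 to 4 they held at most 378, 203, 461 and 376 UMIs. Of the Tsc2 wt/wt libraries compared, replicate 2 had the fullest free RNA barcodes and also the highest Mt1 in this gate. In Tsc2 mut/mut the orders did not match. There replicate 3 had the fullest free RNA barcodes, replicate 4 the highest Mt1 and replicate 1 the lowest. The part of these in the Mt1 and Mt2 differences was not tested.

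**Figure D5:**
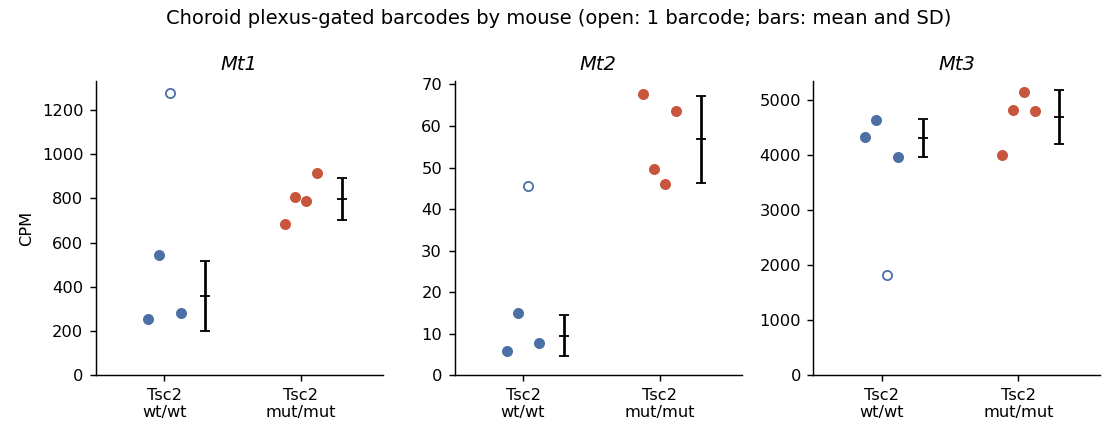
CPM of Mt1, Mt2 and Mt3 in choroid plexus-gated barcodes by genotype, 1 point per mouse, bars giving mean and SD and an open symbol the library with 1 barcode. Mt1 in Tsc2 mut/mut, 685 to 913 CPM, lies above the 254 to 542 CPM of the 3 Tsc2 wt/wt libraries compared.

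In the ependymal gate, with 3 libraries per genotype, Mt2 of Tsc2 wt/wt averaged 156 ± 75.2 CPM against 297 ± 43.6 CPM for Tsc2 mut/mut. The genotypes did not overlap, and the exact permutation p was 0.1, the smallest that 3 against 3 allows (adjusted p = 0.2 over the 3 members). Of 3967 genes, 257 (6.48%) were higher in Tsc2 mut/mut without overlap and 276 were lower without overlap. Mt1 averaged 596 ± 317 against 1120.2 ± 466 CPM and Mt3 575 ± 341 against 1109 ± 447 CPM, both overlapping (exact permutation p = 0.2 for each). This comparison was chosen after seeing the data.

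The oligodendrocyte and microglia gates, also compared after seeing the data, had 4 Tsc2 wt/wt and 3 Tsc2 mut/mut libraries each. Mt1 in oligodendrocyte barcodes was 206, 542, 255 and 199.7 CPM in Tsc2 wt/wt and 709.6, 562 and 961 CPM in Tsc2 mut/mut, and Mt2 averaged 33.6 ± 23.3 against 96.8 ± 34.7 CPM. Both were without overlap, but the adjusted p was 0.171 (exact permutation p = 0.0571 for each). Of 3321 genes, 136 (4.1%) were higher in Tsc2 mut/mut without overlap and 125 were lower without overlap. Mt3 averaged 383 ± 206 against 868 ± 365 CPM and overlapped. In microglia barcodes Mt1 averaged 458 ± 266 against 832 ± 297 CPM, Mt2 49.9 ± 36.5 against 94.4 ± 68.3 CPM and Mt3 487 ± 292 against 1017 ± 439.5 CPM, all overlapping, with exact permutation adjusted p of 0.294, 0.561 and 0.286. The amount of free RNA also differed between the libraries, and its part in these gates and in the ependymal gate was not tested.

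Genes that handle the same metals or answer the same inducers were described from 6 lists. No listed gene passed in any genotype comparison. In the choroid plexus gate, where the tested members of the lists numbered 3 of 21 zinc genes, 5 of 9 copper genes and 6 of 12 Nrf2 targets, Sod1, the cytosolic superoxide dismutase, had the highest copper value at 0.51 (edgeR adjusted p = 0.222) and Slc31a1, a copper importer, the lowest at -0.39. Prdx1, a peroxidase, had the highest Nrf2 value at 0.41 (edgeR adjusted p = 0.0656) and Nqo1, a quinone reductase, the lowest at -0.48. The zinc transporters Slc30a9 and Slc39a13 had 0.28 and -0.34. List medians there were 0.16, 0.18 and 0.14 on the log2 scale for zinc, copper and Nrf2 genes. The other 3 lists had 1 tested gene each, Sgk1 at 0.05, Vim at -0.29 and Hsp90aa1 at -0.05, against -0.0039 for all genes tested. In astrocyte/NSC barcodes the 6 list medians ran from 0.01 for zinc to 0.34 for copper genes, against -0.02 for all genes tested.

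Between nucleus-like and mitochondria-rich barcodes the lists split both ways. Of 17 tested zinc genes, 8 were higher and 7 lower in nucleus-like barcodes, with a median of 0.15 against -0.03 over all genes. Over all 10942 genes tested, 39.5% were called higher and 39.4% lower, so such counts are near the background. Slc30a3, a synaptic vesicle zinc transporter, had -3.78, Slc39a1, a zinc importer, -2.24 and Slc30a7, a Golgi zinc transporter, 2.58 on the log2 scale. Of 6 copper genes 2 were higher and 2 lower, led by Atp7a, a copper pump, at 3.46 and by Cox17, a mitochondrial copper chaperone, at -2.79. Of 11 Nrf2 genes 2 were higher and 5 lower, with Gstm1, a glutathione transferase, at -3.84 and Srxn1, sulfiredoxin, at -3.00. Of 11 glucocorticoid-responsive genes 5 were higher and 2 lower, with Sgk1 at 2.49 and Fkbp5 at 1.77, of 6 reactive astrocyte genes 1 was higher and 2 lower, with Gfap at -3.00, and of 9 immediate early and heat shock genes 4 were higher and 2 lower, with Fosb at 2.26. Every value named here passed the edgeR threshold.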

How the data were processed

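Nuclei were counted by the authors with Cell Ranger 7.0.1 against GRCm38, forcing 60000 cells per library, and the deposited matrices held raw UMI counts per gene and barcode. Seurat 4 is also named in the submitters' processing notes. The group of each library came from its title. The members, lists and gates were chosen with earlier results of these data known.

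Barcodes with at least 300 genes were kept, split by mitochondrial share (under 20%, 30% or more) and gated on marker UMIs. The sort excluded doublets of nuclei. No caller was run for droplets with several nuclei, which were not measured. UMIs were summed per mouse, the replicate, without mitochondrial genes, and tested with edgeR 4.0.16 (TMM, filterByExpr, quasi-likelihood) in R 4.3.3, at an adjusted p of 0.05 over all genes. All 3 members passed the filter in each fit. Single values were tested by exact permutation of log2(CPM + 10) over mice (scipy 1.17.1), or of log2 CPM for correlations and compartments. DESeq2 1.42.0, another filter, other gene minimums, other mitochondrial limits, leaving out the top 5% of barcodes by UMIs, the replicate block and leaving out each mouse were alternatives. The scripts were tested on simulated counts. Of genes changed by 1.5 on the log2 scale, the nucleus-like genotype fit recovered 11.5% and the other fits 84.5 to 95%. Errors are spreads between mice, and the number of UMIs also limits values of Mt2 in small gates.

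Genes named were the members, the 5 genes most like each, and, of 6 pathway lists, those past the threshold (at most 6 per list and comparison with the lowest p) or otherwise the highest and lowest. Same-numbered libraries did not deviate together.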

Additional observations from a re-analysis of the deposited data

Results flagged for a closer look

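In 36 groups of 4 mice, 3 values lay far enough from the others to pass Dixon's 95% limit, and chance gives about 1 in 20. Mt2 in kept barcodes of Tsc2 wt/wt replicate 1 was 409 CPM against 501 to 515 CPM in the other 3. Mt2 in nucleus-like barcodes of Tsc2 mut/mut replicate 4, the library with mostly choroid plexus-gated barcodes, was 65.3 CPM against 107 to 115 CPM. Mt1 in oligodendrocyte-gated barcodes of Tsc2 wt/wt replicate 2 was 542 CPM against 199.7 to 255 CPM. Free RNA barcodes of this library held at most 394 UMIs, against 126, 55 and 146 in Tsc2 wt/wt replicates 1, 3 and 4. The part of free RNA in this value was not tested.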

How the results depend on the processing

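The lower levels of the 3 members in nucleus-like barcodes kept direction and call under every alternative run. Of 188 alternative genotype values of the members in kept, nucleus-like, mitochondria-rich and astrocyte/NSC barcodes, 184 kept their sign and none passed the threshold. The 4 that changed sign were Mt1 (-0.16) and Mt2 (-0.34) in kept barcodes with at least 500 genes, Mt2 in nucleus-like barcodes without choroid plexus-gated ones (-0.13), and Mt1 in astrocyte/NSC barcodes without 1 mouse (range -0.029 to 0.26). The causes were not tested. In the choroid plexus gate, Mt1 was 1.13 with Tsc2 wt/wt replicate 3 kept (edgeR adjusted p = 0.232), where Mt2 was 2.76 (edgeR adjusted p = 0.000513), and Mt2 ranged from 2.51 to 3.11 without 1 mouse.

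Counts of genes called between genotypes moved. In kept barcodes, 7 were called by DESeq2, 0 at 500 genes, 0 without choroid plexus-gated barcodes and 0 to 3 without 1 mouse. In nucleus-like barcodes, 1 was called by DESeq2 and 1 without choroid plexus-gated barcodes. In mitochondria-rich barcodes, 168 were called with no filter, 53 at 200 genes, 15 at 500 genes and 19 to 117 without 1 mouse. In astrocyte/NSC barcodes, 3 were called by DESeq2, 88 with no filter, 4 at 500 genes and 0 to 72 without 1 mouse. In the choroid plexus gate, 55 were called with Tsc2 wt/wt replicate 3 kept, 94 with no filter and 3 to 183 without 1 mouse.

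With limits of 10 and 40%, the gate differences of Mt1 became 0.17 (microglia against astrocyte/NSC) and 0.40 (choroid plexus against astrocyte/NSC), Mt2 in microglia against oligodendrocyte became -0.32, and the compartment difference of Mt2 became 0.13. Without 1 mouse these ranged from -0.30 to 0.16, -0.29 to 0.069, -0.11 to 0.37 and -0.26 to 0.081. Other gate differences that changed sign without 1 mouse were Mt1 in ependymal (-0.013 to 0.55), Mt3 in ependymal (-0.028 to 0.48) and Mt3 in microglia (-0.24 to 0.18) against astrocyte/NSC.

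For nucleus-like barcodes, r of Mt1 with Mt2 was 0.0341 at 500 genes, 0.0351 after centring within genotype and -0.378 to 0.637 without 1 mouse. Without choroid plexus-gated barcodes, r of Mt1 with Mt3 was 0.877 and passed the adjusted threshold (exact permutation, adjusted p = 0.00863). That setting took 156 of the 199 nucleus-like barcodes from Tsc2 mut/mut replicate 4. For mitochondria-rich barcodes, r of Mt1 with Mt2 was 0.719 at 500 genes, where the call was lost, and 0.797 to 0.917 without 1 mouse. For Mt1 with Mt3 it was 0.706 at 500 genes and 0.779 after centring, the call being lost in both. Without 1 mouse it was 0.808 to 0.913. With CPM over all UMIs, r of Mt2 with Mt3 was 0.892 and passed the adjusted threshold (exact permutation, adjusted p = 0.00303).

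The replicate numbers were not taken as pairs. Deviations from the group means of same-numbered libraries of the 2 genotypes correlated from -0.0988 to 0.0609, and those of differently numbered ones from -0.264 to 0.303. Libraries also differed in cell content, so these values do not settle whether the numbers mark a shared origin. With the replicate block, 0 genes were called in kept barcodes, 21 in mitochondria-rich and 11 in astrocyte/NSC barcodes, and no member changed its call. DESeq2 gave no p for Mt3 in nucleus-like barcodes and no adjusted p for Mt2 in the choroid plexus gate. Centring, leaving out choroid plexus-gated barcodes and all choroid plexus, ependymal, oligodendrocyte, microglia and free RNA genotype comparisons were chosen after seeing the data. Choroid plexus values rest on 17 to 156 barcodes per mouse, and on 2 to 3 Mt2 UMIs per Tsc2 wt/wt mouse.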
